A study of Mus musculus with 18 samples.

Results

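The levels of 10 genes that write, read or organise histone H3 lysine 9 methylation were followed in serum-grown mESCs (mouse embryonic stem cells) after knockdown of *Stag1*, which codes for a cohesin subunit. The genes were chosen by name: *Trim28*, *Setdb1*, *Suv39h1*, *Suv39h2*, *Ehmt1*, *Ehmt2*, *Cbx1*, *Cbx3*, *Cbx5* and *Atrx*. All 10 were found among the 18659 genes of the deposited table. The 16 libraries came from 3 replicate sets of 1 male mESC line, E14, grown on gelatin with FCS and LIF and sequenced after rRNA depletion. Every siRNA was applied for 24 h. Scrambled siRNA (scr) was the control in each set, and the SP siRNA pool to *Stag1* was used in each set, with 3 libraries in set 1 (1a, 1b and 1c). Sets 2 and 3 also held 1 library each of a mixture of siRNAs to the 3′ end of *Stag1* (3p), of 1 custom duplex to its 5′ end (5p) and of enzymatically prepared siRNA to the SATS 5′ UTR (SATS). Set 2 had 1 untreated library and set 3 had 1 library of luciferase siRNA. All groups shared 1 genotype and, where an siRNA was used, 1 time point.

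Methylation of H3 lysine 9 marks compacted chromatin and silenced repeats. *Trim28* (KAP1) is the scaffold that zinc finger proteins of the KRAB family use to bring *Setdb1*, a trimethylating enzyme, to transposable elements. *Suv39h1* and *Suv39h2* code for the enzymes that trimethylate the pericentromeric repeats, while *Ehmt2* (G9a) and *Ehmt1* (GLP) form a dimer that dimethylates H3K9 in euchromatin. The products of *Cbx5* (HP1α), *Cbx1* (HP1β) and *Cbx3* (HP1γ) bind the methylated lysine. *Atrx* codes for a remodeller that deposits the histone variant H3.3 at repeats and telomeres. In mESCs the TRIM28 and SETDB1 pathway is known for its silencing of endogenous retroviruses.

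Several of these genes are paralogs, and the sequences they share determine whether a read can be assigned. The longest identical runs between paralogous mRNAs, in the RefSeq transcripts of the GENCODE vM21 annotation, were shorter than a read of 75 bases. They lay in coding sequence in the 3 pairs shown here.
*Suv39h1* and *Suv39h2*: cacctacctctttgacctggactacg
*Ehmt1* and *Ehmt2*: ggctgcggctacttctgcac
*Cbx1* and *Cbx5*: gaggaatatgtggtggaaaa
Copies elsewhere are the larger uncertainty. In *Cbx3*, 26.3% of the 75-base windows were also found in transcripts of 10 other genes. The long noncoding RNA gene *Gm49164* held 459 of these 478 windows. The processed pseudogenes *Cbx3-ps6*, *Cbx3-ps7* and *Cbx3-ps8* were also among the 10. The share was 18.3% in *Suv39h1* (all in the antisense gene *Gm14820*), 7.04% in *Setdb1*, 3.13% in *Suv39h2*, and 0 in the other 6 genes. The methods state strand-aware processing for paired-end samples, and which libraries were paired-end is not given in the sources used here, so reads of *Suv39h1* and *Gm14820* may not have been told apart in all of them.

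The 5p siRNA is shown because 1 member differed under it. Its target, the duplex sequence of the study's methods located in a GENCODE transcript, lies in coding exon 4 of *Stag1* at chr9:100738040-100738058 on the plus strand of GRCm38. Capitals mark the 7 bases that pair with guide positions 2 to 8.
5p target in *Stag1*: aggagcaggtcGTGGAAGa
The whole site occurred in no other gene's transcripts. The 7-base stretch GTGGAAG was present in the 3′ UTR of 12.3% of 16032 genes, and of the 10 members it was present in that of *Atrx*. It was not in the 3′ UTR of *Cbx5*, which at 8097 bases was the longest of the 10. Occurrences outside the 3′ UTR are not compared here. Of the 201 genes with a 3′ UTR within 20% of that length, 45.3% held it. Only this exact stretch was searched, in the longest RefSeq transcript of each gene. Whether the 5p siRNA acts on mRNAs other than *Stag1* was not tested.

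*Stag1* itself was lowered by every siRNA aimed at it. In the scr libraries its normalized value (reads divided by the size factor of the library) was 2016, 1876 and 2113 in sets 1, 2 and 3. It was 512, 627 and 660 in SP libraries 1a, 1b and 1c, and 406 and 371 in SP of sets 2 and 3. The values in sets 2 and 3 were 392 and 365 with 3p, 441 and 401 with 5p, and 947 and 1051 with SATS. Each knockdown library lay below all 3 scr libraries, the untreated library (1619) and the luciferase library (2200). The fitted log2 fold changes in sets 2 and 3 were -2.36 for SP, -2.39 for 3p, -2.24 for 5p and -0.996 for SATS (SE 0.12 each). In limma the first 3 passed without a block, with adjusted p = 0.0017 or lower, and SATS passed only with set number as a block (adjusted p = 0.0013, against 0.633 without it). Over 3 sets SP gave -2.15 (SE 0.20), with adjusted p = 0.225 and, with the block, 0.0534.

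Set 1 was shallower than the others. *Rn45s*, the ribosomal RNA precursor, took 69.2% to 79.1% of the reads on genes in its 4 libraries. In the other 12 libraries *Rn45s* took 14.7% to 23.9%. After removal of *Rn45s*, 1883691 to 4321867 reads remained in set 1, while the other 12 held between 25978759 and 36332493. The part of this *Rn45s* difference in the results below was not tested. Summed values of 6 stem cell markers were 21515 to 50774 over all libraries. Within set 1 they were 50774 in scr and 40418, 34573 and 27309 in SP libraries 1a, 1b and 1c. Summed values of 5 fibroblast markers were 83.6 to 451 in set 1, 2545 to 5624 in set 2 and 337 to 545 in set 3. The 5624 was the untreated library, and the next highest of set 2 was SATS with 3607. Sets therefore differed in markers of another cell type, whose part in the results below was not tested. In such bulk samples fewer cells of a type and less RNA per cell cannot be told apart.

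The level of the 10 genes in the scr libraries spanned a wide range. Divided by exon length, *Trim28* had 8978 ± 498 normalized units per kb (SD, n = 3 scr libraries), more than any other member in each of the 3 libraries. *Cbx5* followed with 1423 ± 137 per kb, then *Cbx1* with 1196 ± 443 per kb and *Cbx3* with 636 ± 260 per kb. The scr libraries of *Cbx5*, *Cbx1* and *Cbx3* overlapped from each gene to the next in this order, though *Cbx1* lay above *Cbx3* within each set. *Cbx3* lay above *Ehmt2* in set 1 only, with 495 and 478 per kb against 600 and 650 in sets 2 and 3. *Ehmt2* had 624 ± 24.9 per kb and *Setdb1* 512 ± 14.3 per kb, and their scr values did not overlap. Both lay above *Atrx* and *Ehmt1* in all 3 libraries. *Atrx* (412 ± 29.4 per kb) and *Ehmt1* (374 ± 33.6 per kb) overlapped. The lowest were the SUV39H enzymes, *Suv39h1* with 158 ± 70.3 per kb and *Suv39h2* with 121 ± 20.04 per kb, whose scr values overlapped too. The per-kb order depends on the exons counted. With all annotated exons in place of those of RefSeq transcripts, *Cbx1* had 350.2 and *Cbx3* 201 per kb, both below *Ehmt2* (468 per kb).

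**Figure D1:**
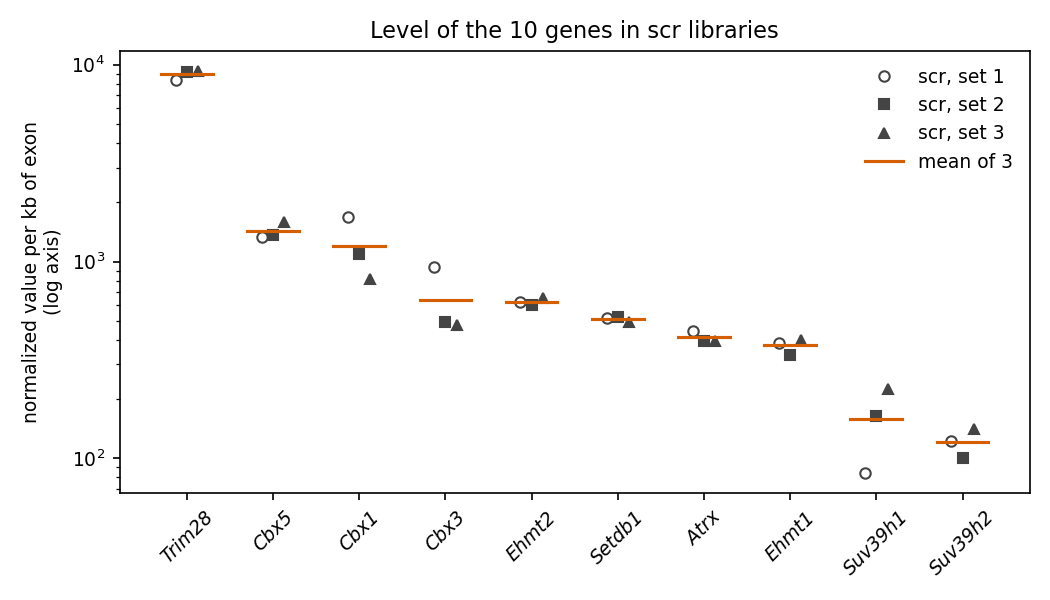
Normalized value per kb of RefSeq exon (log axis) of the 10 genes in the scr libraries of sets 1, 2 and 3 (symbols), with their mean (line). *Trim28* stands at 8978 per kb, well above the rest, and the SUV39H genes are lowest at 158 and 121 per kb.

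Some of these levels differed between replicate sets. *Cbx3* had 1768 units in scr of set 1 against 934 and 903 in sets 2 and 3, and *Cbx1* had 2103 against 1371 and 1015. *Suv39h1* ran the other way, with 275 units in set 1, 536 in set 2 and 731 in set 3. *Trim28*, *Setdb1*, *Ehmt1*, *Ehmt2*, *Cbx5* and *Atrx* were steadier, and their scr libraries differed by less than 20% between sets. Same-numbered libraries deviated together across all genes, so each comparison was also fitted with the set as a block.

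The question asked of the knockdowns was whether loss of *Stag1* altered the expression of the H3K9 machinery. The 4 comparisons of sets 2 and 3 share the same scr libraries. Without the block, 0 of the 10 members passed an adjusted p of 0.05 in limma in SP over 3 sets (0.0% of all 15970 genes passed), in SP (0.00606% of 16490 genes), in 3p (0.00606%), in 5p (0.0121%) or in SATS (0.0%) over sets 2 and 3. At an unadjusted p under 0.05 there was 1 member in 5p, *Cbx5*, and 1 in SATS, *Ehmt1*, and there were 0 in the other 3 comparisons. edgeR on the recovered reads without the block also called 0 members in each. With the block, limma called 0 members in SP over 3 sets (0.0% of all genes), 0 in SP of sets 2 and 3 (0.746%), 0 in 3p (0.285%), 1 in 5p (2.37%) and 2 in SATS (2.64%). The member in 5p was *Cbx5* and those in SATS were *Cbx3* and *Ehmt1*, and edgeR (2.41% of all genes in 5p and 3.34% in SATS) and DESeq2 (3.1% and 5.15%) with the block called the same 3. With the block, edgeR and DESeq2 called 0 members in SP over 3 sets (0.413% and 0.313% of all genes), in SP of sets 2 and 3 (0.813% and 1.32%) and in 3p (0.303% and 0.867%). In the comparisons with 0 members called with the block, the unadjusted p in limma was under 0.05 for *Setdb1* in SP over 3 sets and in 3p. In edgeR and DESeq2 with the block it was under 0.05 for *Cbx1*, not *Setdb1*, in SP over 3 sets. In 3p it was so for *Setdb1* in both and also for *Cbx3* in DESeq2. In SP of sets 2 and 3 there were 0 in each tool.

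**Figure D2:**
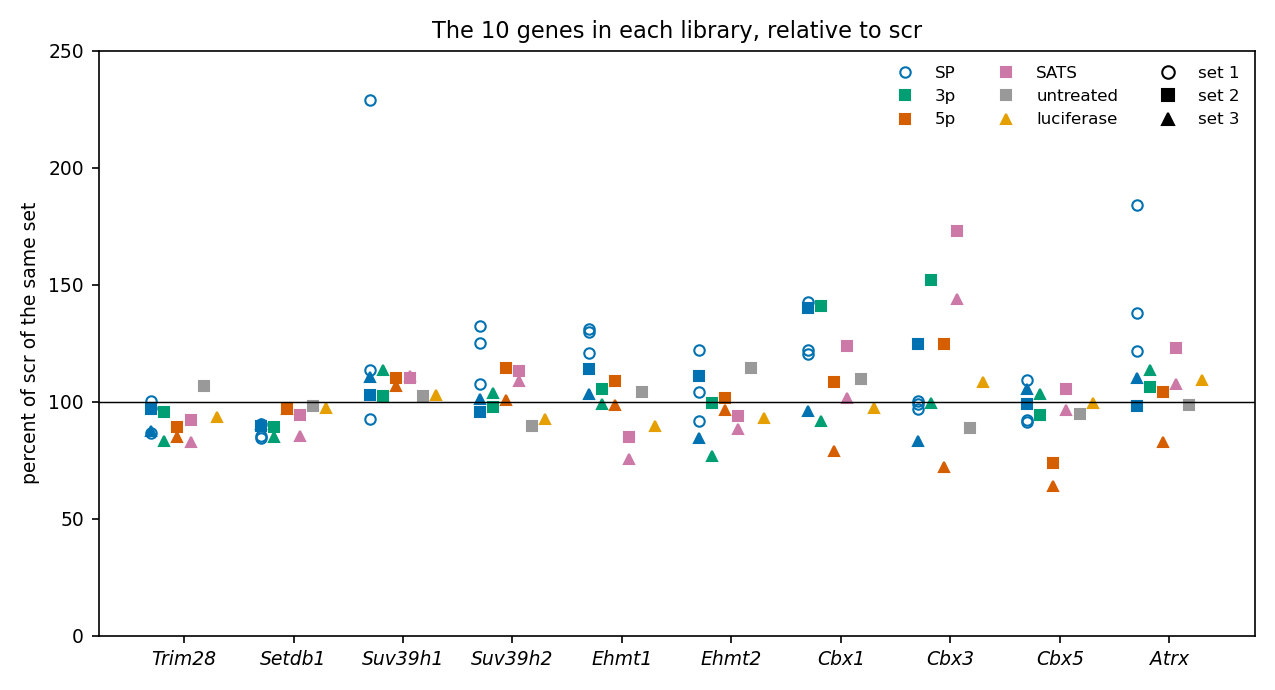
Value of each of the 10 genes in every SP, 3p, 5p, SATS, untreated and luciferase library as a percent of scr of the same set (colour, siRNA; open circles, set 1; squares, set 2; triangles, set 3). Most points lie between 80% and 120%; both 5p points of *Cbx5* (73.9% and 64.1%) lie below its other libraries, both SATS points of *Cbx3* (173% and 144%) lie high, and *Suv39h1* and *Atrx* in SP library 1c reach 229% and 184%.

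*Cbx5* (chr15:103191544-103239816, minus strand, GRCm38), which codes for HP1α, the form most concentrated at pericentromeric heterochromatin, was lower with 5p than with any other siRNA. Its values were 11947, 12229 and 14199 in scr of sets 1, 2 and 3, and 9038 and 9102 with 5p in sets 2 and 3. SP gave 10915, 11021 and 13038 in set 1 and 12092 and 14987 in sets 2 and 3. The 5p libraries lay below all 14 other libraries and did not overlap with any group. The remaining values were 11541 and 14688 with 3p, 12888 and 13666 with SATS, 11561 in untreated cells and 14119.7 with luciferase siRNA. As a share of scr, the 5p libraries reached 73.9% (set 2) and 64.1% (set 3), while all other libraries lay between 91.4% and 109%.

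The log2 fold change of *Cbx5* with 5p was -0.54 (SE 0.15, adjusted p = 1.00 without the block; SE 0.092, 95% interval -0.74 to -0.34, adjusted p = 0.0067 with the block, limma). It was also lower with 5p than with the other siRNAs to *Stag1* in the blocked fit. The difference was -0.52 against 3p (adjusted p = 0.0071; 3.26% of all genes passed, and 3.21% in edgeR and 3.61% in DESeq2), -0.57 against SP (0.0030; 5.75%) and -0.55 against SATS (0.0040; 6.42%), and all 3 missed the threshold without the block (adjusted p = 0.557 or higher). The comparisons with SP and SATS were added after these values were seen. Relative to scr, the blocked interval of *Cbx5* was -0.17 to 0.23 with SP, -0.22 to 0.18 with 3p and -0.19 to 0.21 with SATS, so each excluded a fall of the size seen with 5p. With 2 libraries per group the call rested on single libraries. It was kept without the 5p library of set 2 (adjusted p = 0.0069) and lost without scr of set 2 (0.0915), scr of set 3 (0.143) or the 5p library of set 3 (0.169), with fold changes of -0.65 to -0.42. Against SP and SATS the call was lost without the 5p library of set 3 (0.0817 and 0.107), against SP also without SP of set 3 (0.0743), and against 3p without 5p or 3p of set 3 (0.178 and 0.130).

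*Cbx5* starts 616 bases from *Hnrnpa1*, an RNA binding protein gene read in the opposite direction. The 250 bases upstream of the *Cbx5* start nearest *Hnrnpa1* are chr15:103239853-103240102 on the minus strand (RefSeq, GRCm38.p6). They are shown because they lie between the starts of both genes. Capitals mark GC boxes (GGGCGG or its complement CCGCCC) and CCAAT boxes (CCAAT or ATTGG).
*Cbx5* upstream: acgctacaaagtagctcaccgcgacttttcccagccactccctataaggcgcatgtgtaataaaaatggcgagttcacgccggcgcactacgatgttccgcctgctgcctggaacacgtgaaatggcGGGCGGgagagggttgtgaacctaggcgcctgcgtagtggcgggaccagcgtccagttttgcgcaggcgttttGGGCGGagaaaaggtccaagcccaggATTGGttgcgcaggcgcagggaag
The window is 59.2% GC with 22 CpG dinucleotides, against medians of 52.4% and 6 over 32851 promoters. A GC box was present in 32.7% of these and a CCAAT box in 33.8%. RefSeq holds a further *Cbx5* start inside the gene. Its upstream window, chr15:103215353-103215602, is 51.2% GC with 7 CpG dinucleotides. The neighbour *Hnrnpa1* had 185 and 137 units in scr of sets 2 and 3 and 199 and 107 with 5p. Its log2 fold change of -0.12 (SE 0.13 with the block) did not pass in limma (adjusted p = 0.706). Windows that *Hnrnpa1* shares with other genes were not searched, so how fully its reads were assigned was not tested.

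**Figure D3:**
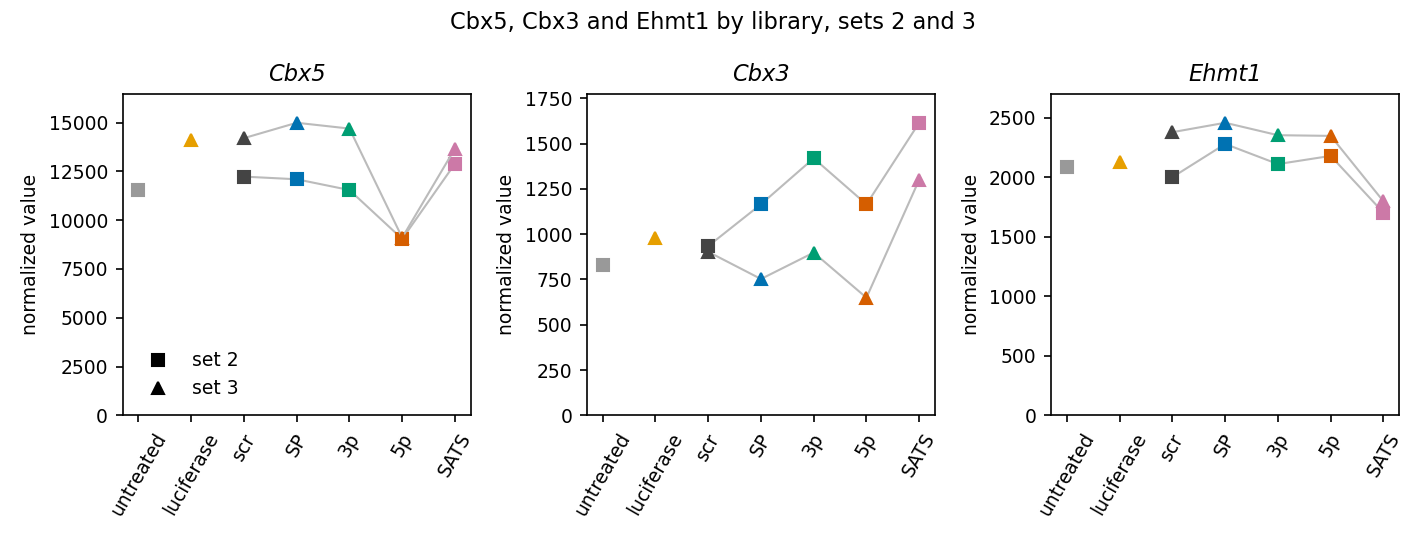
Normalized values of *Cbx5*, *Cbx3* and *Ehmt1* in each library of set 2 (squares) and set 3 (triangles), with grey lines joining libraries of a set. *Cbx5* drops to 9038 and 9102 with 5p, *Cbx3* is highest in each set with SATS (1615 and 1301), and *Ehmt1* is lowest with SATS (1703 and 1798).

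*Cbx3* (chr6:51470360-51483704, plus strand, GRCm38), which codes for HP1γ, the form also found in transcribed genes, was highest with SATS in sets 2 and 3. In set 2 its value was 934 in scr, 828.8 in untreated cells, 1165 with SP, 1419 with 3p, 1165 with 5p and 1615 with SATS. In set 3 it was 903 in scr, 977 with luciferase siRNA, 753 with SP, 899 with 3p, 649 with 5p and 1301 with SATS. SATS therefore stood above each other library of its own set, while SP, 3p and 5p lay above scr in set 2 and below it in set 3. In set 1 the scr library (1768) and the SP libraries (1749, 1775 and 1715) differed by less than 4%.

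The log2 fold change of *Cbx3* with SATS was 0.66 (SE 0.34, adjusted p = 1.00 without the block; SE 0.14, 95% interval 0.36 to 0.96, adjusted p = 0.030 with it, limma). In the blocked limma fit SATS also exceeded SP by 0.63 (adjusted p = 0.016, with 9.42% of all genes passing) and 5p by 0.74 (0.0081, with 6.42% passing). The difference of 0.36 from 3p did not pass (0.186, while 3.06% of all genes did). These comparisons between siRNAs to *Stag1* were not among the 6 planned and share the SATS libraries. Without the block these missed the threshold too (adjusted p = 0.7999 or higher). Leaving out scr of set 2 reduced the fold change to 0.38 (adjusted p = 0.246), and the call was also lost without scr of set 3 (0.94, 0.0607) or SATS of set 3 (0.54, 0.387). Over SP the call was lost without SP of set 2 (0.0750) or set 3 (0.128) or SATS of set 3 (0.203), and over 5p without 5p or SATS of set 3 (0.160 and 0.1498). The reads that *Cbx3* may share with *Gm49164*, its pseudogenes and other genes add an uncertainty that was not tested. *Hnrnpa2b1*, which starts 466 bases from *Cbx3* on the opposite strand, did not pass (log2 fold change 0.18, SE 0.088, adjusted p = 0.304 with the block).

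*Cbx1*, which codes for HP1β, passed in no comparison. Its values in scr of sets 1, 2 and 3 were 2103, 1371 and 1015. SP and 3p gave 140% and 141% of the scr value in set 2 but 96.0% and 91.7% in set 3, so that the sets lay on opposite sides of scr. The 3 SP libraries of set 1 lay at 120% to 143%. Over 3 sets the log2 fold change with SP was 0.26 in limma (SE 0.41, 95% interval -0.72 to 1.24, adjusted p = 1.00). With the block the SE was 0.12 and adjusted p = 0.759. In edgeR with the block it was 0.28 (unadjusted p = 0.0185, adjusted p = 0.402).

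*Ehmt1* (chr2:24789928-24919614, minus strand, GRCm38), the gene of the G9a partner GLP, was lower with SATS than in scr. Its values in scr of sets 1, 2 and 3 were 2304, 2001 and 2379, and SATS gave 1703 in set 2 and 1798 in set 3, which is 85.1% and 75.6% of scr. These were the lowest of the 16 libraries. The other knockdowns of sets 2 and 3 lay between 98.7% and 114% of scr, and the luciferase library lay at 89.5%. SP in set 1 went the other way, with 2788, 3020 and 2988, or 121% to 131% of scr.

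The log2 fold change of *Ehmt1* with SATS was -0.32 (SE 0.12, adjusted p = 1.00 without the block; SE 0.073, 95% interval -0.47 to -0.16, adjusted p = 0.037 with it, limma). In the blocked limma fit SATS was below SP by a log2 difference of -0.44 (adjusted p = 0.0044, with 9.42% of all genes passing). It was below 3p by -0.35 (0.024, with 3.06% passing), and 5p was above SATS by 0.37 (0.0094, with 6.42% passing). These comparisons between siRNAs to *Stag1* were not among the 6 planned and share the SATS libraries with the one against scr. All 3 missed the threshold without the block (adjusted p = 0.627 or higher). The call against scr was kept without SATS of set 2 (-0.36, adjusted p = 0.0486) and lost without scr of set 2 (-0.39, 0.122), scr of set 3 (-0.25, 0.367) or SATS of set 3 (-0.28, 0.393). The difference from SP was lost without SP of set 2 (0.0649) or SATS of set 3 (0.0834). That from 3p was lost without 3p of set 2 (0.0593) or set 3 (0.206) or SATS of set 3 (0.274), and that from 5p without 5p of set 2 (0.0508) or set 3 (0.0897) or SATS of set 3 (0.1504). With SP over 3 sets the log2 fold change was 0.19 (SE 0.14, adjusted p = 1.00; SE 0.084 and adjusted p = 0.759 with the block), with all 5 SP libraries above scr of their set, as for 7.85% of the 15970 genes.

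*Ehmt2*, the G9a gene, passed in no comparison. It had 2558, 2468 and 2673 units in scr of sets 1, 2 and 3. Relative to scr, 3p gave 99.5% in set 2 and 76.7% in set 3, and SATS gave 93.7% and 88.2%. The log2 fold changes were -0.20 (SE 0.13) and -0.14 (SE 0.13), with adjusted p = 1.00 each, and 0.509 and 0.489 with the block. The untreated library of set 2 lay at 115% and the luciferase library of set 3 at 93.2%. In each set the 3p and SATS libraries lay below both controls of their own set.

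*Suv39h1* and *Suv39h2* were the genes with the fewest reads and passed in no comparison. *Suv39h1* lay above scr in all 8 knockdown libraries of sets 2 and 3, at 102% to 114%, and 5.04% of the 16490 genes did so. The untreated and luciferase libraries lay at 103% each. In set 1 the SP libraries spread widely, with 254, 312 and 628 units against 275 in scr. The last of these, 229% of scr, came from library 1c and rested on 78 reads against 41 in scr. Over 3 sets the log2 fold change with SP was 0.24 (SE 0.41, 95% interval -0.72 to 1.21, adjusted p = 1.00; 0.759 with the block). *Suv39h2* had 529, 435 and 608 units in scr, and its knockdown libraries of sets 2 and 3 lay at 95.8% to 115% of scr, beside 89.8% in the untreated and 92.7% in the luciferase library.

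*Trim28* and *Setdb1*, the scaffold and enzyme of KRAB-mediated silencing, were below scr in all 8 knockdown libraries of sets 2 and 3. Of all 16490 genes, 5.92% were, and the 8 libraries share 2 scr libraries. *Trim28* had 27275, 29930 and 30200.2 units in scr of sets 1, 2 and 3. In set 2 it lay at 97.1% of scr with SP, 95.8% with 3p, 89.4% with 5p and 92.3% with SATS, and in set 3 at 87.6%, 83.3%, 84.8% and 82.7%. The SP libraries of set 1 lay at 97.2%, 100.2% and 86.7%. The untreated library of set 2 stood at 107% and the luciferase library of set 3 at 93.6%, so that all 4 knockdown libraries of each set lay below both controls of their own set. The log2 fold changes were -0.10 (SE 0.12) with SP over 3 sets and -0.12, -0.16, -0.20 and -0.20 (SE 0.11 each) with SP, 3p, 5p and SATS over sets 2 and 3. None passed (adjusted p = 1.00 each, and 0.254 to 0.759 with the block). With the block the unadjusted p was 0.0402 for 5p and 0.0451 for SATS.

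*Setdb1* was the member with the narrowest spread. It had 2417, 2426 and 2307 units in scr, 2383 in untreated cells and 2244 with luciferase siRNA. SP gave 2059, 2042 and 2182 in set 1, 2174 in set 2 and 2084 in set 3, each below every control library. All 5 SP libraries were below scr of their set, as were 9.06% of all 15970 genes. Set 2 and set 3 gave 2164 and 1962 with 3p, 2365 and 2233 with 5p, and 2285 and 1970.1 with SATS. The 3p libraries lay below every control, while 5p and SATS of set 2 lay below both controls of their own set but above the luciferase library of set 3. The log2 fold changes were -0.17 (SE 0.10, 95% interval -0.42 to 0.07) with SP over 3 sets, and -0.15, -0.20, -0.04 and -0.16 (SE 0.11 each) with SP, 3p, 5p and SATS. None passed (adjusted p = 1.00 each). With the block the unadjusted p in limma was 0.0485 for SP over 3 sets, 0.0156 for 3p and 0.0477 for SATS, with adjusted p = 0.759, 0.336 and 0.261. In edgeR with the block the unadjusted p for SP over 3 sets was 0.0907.

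*Atrx* passed in no comparison. Its values were 4580.5, 4074 and 4040.1 in scr of sets 1, 2 and 3. SP in set 1 gave 5580 with 1a, 6320 with 1b and 8424 with 1c, which is 122%, 138% and 184% of scr. In sets 2 and 3 the siRNAs to *Stag1* lay between 82.6% (5p, set 3) and 123.0% (SATS, set 2), and the controls at 98.4% and 109%. The log2 fold change with SP over 3 sets was 0.23 (SE 0.21, adjusted p = 1.00) and that with SATS was 0.20 (SE 0.13, adjusted p = 1.00), with 0.759 and 0.319 in the blocked fit. Library 1c was the highest of all 16 for *Atrx* and the highest of set 1 for *Suv39h1*, and it was also the library with the fewest reads outside *Rn45s* (1883691).

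**Figure D4:**
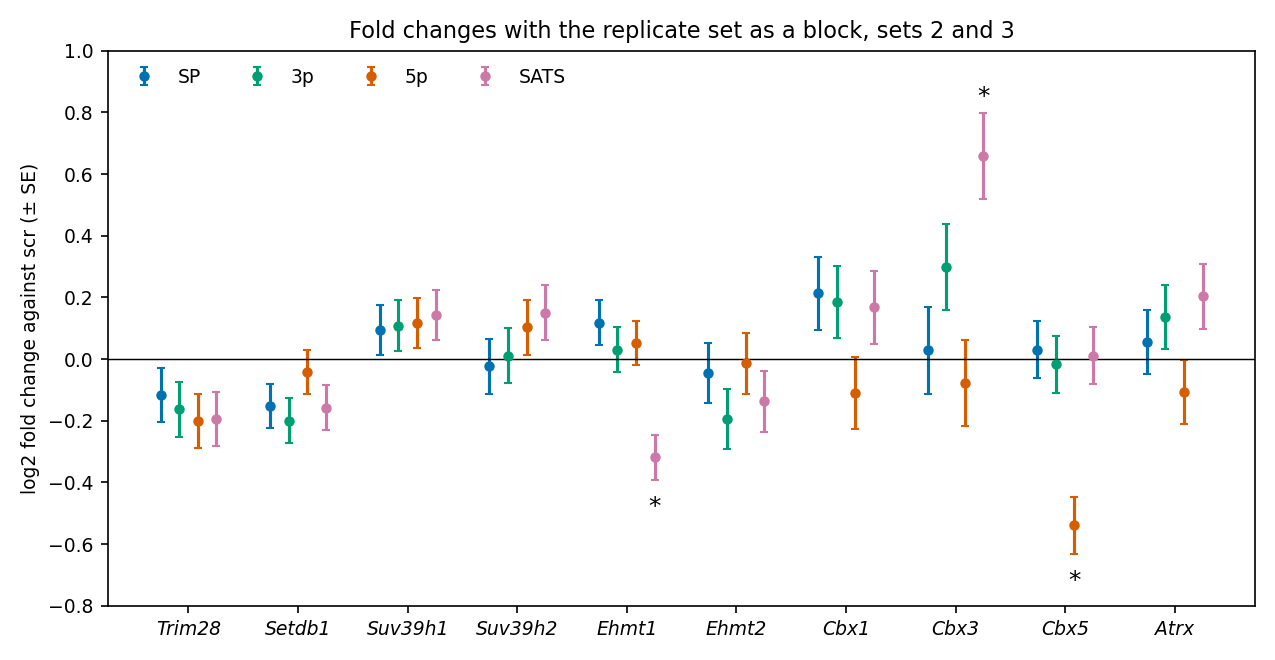
Log2 fold change against scr (± SE) of the 10 genes with SP, 3p, 5p and SATS in sets 2 and 3, from the fit with set number as a block (n = 2 libraries per group). Asterisks mark adjusted p under 0.05: *Ehmt1* (-0.32) and *Cbx3* (0.66) with SATS, and *Cbx5* (-0.54) with 5p; *Trim28* and *Setdb1* lie below 0 with each siRNA without passing.

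A list of 66 other genes was sorted by role into H3K9 demethylases, KRAB or TRIM28 partners, partners of the methyltransferases, other H3K9 or H4K20 methyltransferases, chromatin readers and histone chaperones. In limma without the block, 0 of the 66 passed in any of the 5 comparisons with scr. With the block 0 of 66 passed with SP over 3 sets (0.0% of all genes), 1 fell with SP over sets 2 and 3 (0.746%), 0 passed with 3p (0.285%), 1 fell with 5p (2.37%), and 1 rose and 1 fell with SATS (2.64%). The median log2 fold change of the 66 in these comparisons was -0.00, -0.01, -0.02, -0.03 and 0.01, beside 0.01, 0.00, -0.00, 0.01 and -0.00 over all genes tested. The 10 members had medians of 0.05, 0.03, 0.02, -0.06 and 0.08. None of the 10 demethylases, 10 methyltransferase partners, 7 other methyltransferases or 14 readers passed in these comparisons.

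With 5p, *Chaf1a*, the large subunit of the CAF-1 histone chaperone, had 1747 and 1624 units against 2002 and 2285 in scr of sets 2 and 3. Both 5p libraries were below every other library of their set. The log2 fold change was -0.34 (SE 0.084, adjusted p = 0.048 with the block), and against 3p it was -0.37 (adjusted p = 0.027 with the block; 3.26% of all genes passed). Both missed the threshold without it (adjusted p = 1.00 and 0.736). The call against scr was lost without scr of set 2 (0.106), scr of set 3 (0.449) or 5p of set 3 (0.397). That against 3p was lost without 3p of set 2 (0.0812), 3p of set 3 (0.190) or 5p of set 3 (0.391). In the same contrast of 5p and 3p, *Cbx5* was the member that passed.

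With SATS, *Zfp57*, a KRAB zinc finger gene that protects imprinted regions, had 1781 and 1329 units against 2276 and 1822 in scr of sets 2 and 3. Its log2 fold change was -0.40 (SE 0.083, adjusted p = 0.027 with the block). *Hells*, a remodeller needed for DNA methylation of repeats, had 4858 and 6792 units against 3884 and 5114 in scr. The log2 fold change was 0.37 (SE 0.080, adjusted p = 0.032 with the block). Without the block both were at adjusted p = 1.00. *Zfp57* was lost without scr of set 2 (0.132), scr of set 3 (0.294) or SATS of set 3 (0.361), and *Hells* was lost without the same libraries (0.187, 0.251 and 0.398).

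With SP over sets 2 and 3, *Zfp568*, another KRAB zinc finger gene, had 4768 and 3899 units against 5848 and 5399 in scr. Its log2 fold change was -0.38 (SE 0.076, adjusted p = 0.037 with the block and 1.00 without), and the call was lost when any 1 of the 4 libraries was left out (adjusted p = 0.117 to 0.484). In the SP libraries of set 1 it had 5237, 4519 and 4639 units against 4708 in scr, on both sides of that control.

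Of the list genes that did not pass, *Adnp*, which codes for a partner of HP1 proteins, had the lowest fitted change in 3 of the comparisons. It was -0.44 (SE 0.36) with SP over 3 sets, -0.41 (SE 0.16) with 5p and -0.40 (SE 0.16) with SATS. *Adnp* had few reads in set 1, with 31 in scr and 14, 39 and 17 in SP libraries 1a, 1b and 1c. The demethylase-related gene *Jmjd1c* had the highest with SP over 3 sets (0.19, SE 0.16), the HUSH subunit *Mphosph8* with 3p (0.19, SE 0.15), the histone gene *H3f3b* with 5p (0.33, SE 0.23) and the H3 chaperone *Asf1a* with SATS (0.39, SE 0.21). With 3p the lowest was *Cdyl2* (-0.43, SE 0.45). With 5p against 3p, the highest was *H3f3b* (0.30, SE 0.23). Each was at adjusted p = 1.00 in limma without the block.

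The controls give the scale of differences that no knockdown of *Stag1* is part of. Untreated cells of set 2 lay between 88.7% (*Cbx3*) and 115% (*Ehmt2*) of scr for the 10 genes, and the luciferase library of set 3 lay between 89.5% (*Ehmt1*) and 109% (*Atrx*). Over the 11058 genes whose mean value reached 50, the 5th and 95th percentiles were 83.6% and 119% for untreated and 87.1% and 116% for luciferase. With 1 library of each there was no replicate and no test. *Cbx5* with 5p and *Cbx3* with SATS lay outside these ranges in both sets. *Ehmt1* with SATS lay outside in set 3 only, since its 85.1% in set 2 was above the 83.6% of that set's control. Differences that were not called lay outside too, so this did not set the called ones apart. Among them were *Cbx3* with 5p in both sets (125% and 71.9%) and *Cbx1* with SP (140%) and 3p (141%) in set 2. In set 3 they included *Cbx1* with 5p (79.1%) and *Ehmt2* with 3p (76.7%).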

How the data were processed

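Gene levels were taken from 16 libraries of rRNA-depleted RNA from mESCs in 3 replicate sets, and 2 libraries from 2i culture were left out. The authors aligned reads to mm10 with HISAT2, counted them with featureCounts and deposited a normalized signal per gene, the reads divided by a DESeq2 size factor of the library. A deposited table of set 1 in edgeR-normalized units was not used. Whole reads could be recovered for 100% of the values (tolerance 0.001).

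log2(value + 1) was fitted with limma 3.58.1 (trend) in R 4.3.3 for genes whose values summed to 10 or more, with Benjamini-Hochberg adjustment over all of them and a threshold of 0.05. Fold changes of low genes are understated on this scale. SP libraries of set 1 were averaged to 1 sample. edgeR 4.0.16 on the recovered reads called 0, 1, 1, 2, 0 and 0 genes in SP over 3 sets, SP, 3p, 5p and SATS against scr, and 5p against 3p, without the block, and 66, 134, 50, 397, 550 and 529 with it. DESeq2 1.42.0 was used with the block. Fits were tested on simulated data.

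Set numbers in the labels were taken as pairs, since same-numbered deviations from group means correlated at 0.77 to 0.82 in SP over 3 sets (3 pairs) and 0.81 to 0.93 in sets 2 and 3 (20 pairs). The labels do not say whether libraries of a group came from separate cultures, so p-values measure the spread between these libraries. Depth bounds counting error only.

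The members and lists were chosen with earlier results of these data known. All 10 members, *Stag1* and, of the 66 list genes, those past the threshold or with the largest rise or fall per comparison (mean value of at least 50) were named, except for a result that is not reported here. *Hnrnpa1* and *Hnrnpa2b1* were chosen as neighbours. Alternatives covered the pseudocount, filters, TMM scaling, the block, the count tools, each replicate and added controls. Leave-outs within a group of 2 assume that the lone library varies like the other groups.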

Additional observations from a re-analysis of the deposited data

How the results depend on the processing

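With the replicate set as a block in limma, the number of members called moved from 0 to 1 in 5p against scr and in 5p against 3p. It moved from 0 to 2 in SATS against scr. The block called 2.37%, 3.26% and 2.64% of all genes in these 3 comparisons. The counts were the same, 1, 1 and 2, in edgeR and DESeq2 with the block and with TMM library sizes and the block. All-gene shares in that order of comparisons were 2.41%, 3.21% and 3.34% in edgeR and 3.1%, 3.61% and 5.15% in DESeq2. With TMM library sizes they were 2.55%, 3.43% and 2.65%. They were 1 and 2 in 5p and SATS with untreated and luciferase as further controls and the block, where 6.71% and 10.7% of all genes passed. When 1 replicate was left out the counts were 0 to 1 in 5p, 0 to 1 in 5p against 3p and 0 to 2 in SATS. In SP over 3 sets, SP over sets 2 and 3 and 3p, the count was 0 under all alternatives run. The block also moved the count from 0 to 1 in 5p against SP (5.75% of all genes passed) and to 3 in 5p against SATS (6.42%). It moved it to 2 in SATS against SP (9.42%) and 1 in SATS against 3p (3.06%). Chosen after seeing the data were, each with the block, TMM library sizes, leaving out replicates, single SP libraries of set 1 and the further controls. The comparisons of 5p with SP and SATS, and of SATS with SP and 3p, were not among the 6 planned.

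Of 60 fold changes (10 members in 6 comparisons), 35 changed sign when a replicate was left out, the largest of them 0.38 in size on the log2 scale, and 5 changed sign under another alternative, none over 0.023. Groups of 2 libraries and 41 to 79 reads for the SUV39H genes in scr of set 1 limit what could be detected.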
